A study of Homo sapiens with 18 samples.

Results

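The genes described here are the heat shock proteins and their J protein partners, the molecular chaperones of the cell. They were chosen by symbol alone, as every gene of the expression table whose name belongs to the HSPA, HSPB, HSPD, HSPE, HSPH, HSP90 or DNAJ A, B and C families, with pseudogenes left out. This gave 54 genes of the 12853 in the table, and 1 further symbol, HSP90AB3P, was left out as a pseudogene. The gene annotation holds 69 protein-coding genes with such names, of which 53 were in the table under the same name and 16 were not analysed here. The remaining member, HSPB11, is listed in newer annotation as IFT25, and it is better known as a subunit of the transport machinery of cilia than as a chaperone.

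Chaperones bind unfolded or partly folded proteins and help them fold, assemble, cross membranes or be degraded. HSP70 proteins do so in cycles of ATP binding and hydrolysis, in which J proteins deliver substrates and start hydrolysis, and HSP110 proteins exchange the nucleotide. HSP90 acts later in folding on kinases, steroid receptors and other clients, small heat shock proteins hold unfolded proteins without ATP, and the transcription factor HSF1 induces many of these genes when proteins misfold.

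RNA from 6 established human ovarian cancer cell lines, forming 3 pairs of a platinum-sensitive line and a resistant counterpart, was sequenced in 3 libraries per line. CP70 is a derivative of A2780, labelled endometrial/ovarian cancer, that was made resistant in culture, so its selection took place outside a patient. PEA1 and PEA2 were taken from the ascites of the same patient, before platinum treatment and at relapse with resistant disease. PEO1 and PEO4 likewise come from a single patient and both followed platinum treatment, PEO1 before and PEO4 after clinical resistance arose. All were grown in RPMI-1640 with glutamine and serum, the labels name no heat or drug treatment before RNA extraction, and ribosomal RNA was depleted before a directional library was made. Each condition in a pair is therefore a single line, and nothing states that the 3 libraries of a line came from separate cultures, so p-values measure the spread between these libraries, which may be technical.

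Values are log2 CPM, the log2 of read counts scaled to the size of the library, and log2FC is the resistant line minus the sensitive line. A change is said to have risen or fallen where its false discovery rate (FDR, limma, Benjamini-Hochberg over all 12853 genes) was below 0.05, and the study's size threshold for differential expression was an absolute log2FC above 2. Libraries held between 1344098 and 7067336 reads on the listed genes, PEA1 having the fewest, from 1344098 to 1670866. Of 11 markers of ovarian and serous epithelium, 0 exceeded 3 reads in every A2780 library, against 3 in CP70, 5 in PEA1, 11 in PEA2, 10 in PEO1 and 11 in PEO4. Of the leukocyte markers only PTPRC was in the table, with 46 to 70 reads in PEA2 libraries and at most 2 in any library of another line. The endothelial marker in the table summed to between 25.3 and 36.1 CPM in PEA2 and stayed below 0.406 CPM elsewhere, and the 4 fibroblast markers summed to between 366 and 447 CPM in PEA1 and between 3.26 and 57.2 CPM in the other lines. In PEA1 that sum was COL1A1 alone, with 513 to 649 reads, and COL1A2, DCN and LUM had 0 reads in every PEA1 library, whereas all 4 exceeded 3 reads in every CP70 library. The part of these markers in the changes of the PEA pair described here was not tested.

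Chaperone transcripts took between 1.09% and 1.65% of the reads of a line. Their share was 1.63% ± 0.02 (SD, n = 3) in A2780 and 1.65% ± 0.06 in CP70, where the libraries overlapped. It was 1.51% ± 0.04 in PEA1 and 1.22% ± 0.03 in PEA2, with every PEA2 library below every PEA1 library, but on the scaled library sizes behind the log2 CPM the sums were closer, 14650 ± 364 CPM in PEA1 and 13960 ± 298 CPM in PEA2. In the PEO pair the order was the opposite, 1.09% ± 0.12 in PEO1, with PEO1 replicate 3 lowest at 0.955%, and 1.55% ± 0.04 in PEO4. Per kilobase of exon HSP90AB1, HSPA8 and HSP90AA1 led in every line. The length joins every annotated exon of a gene, so genes with long, rarely used exons rank lower. HSP90AB1 ranked first in A2780 at 801 CPM per kb, and also in CP70, PEA2 and PEO4, at 850, 547 and 863 CPM per kb. HSPA8 was first in PEA1 at 590 CPM per kb, and HSP90AA1 in PEO1 at 456 CPM per kb, where HSP90AB1 was at 271 CPM per kb. In bulk RNA, fewer cells expressing a gene and less RNA per cell cannot be told apart.

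**Figure D1:**
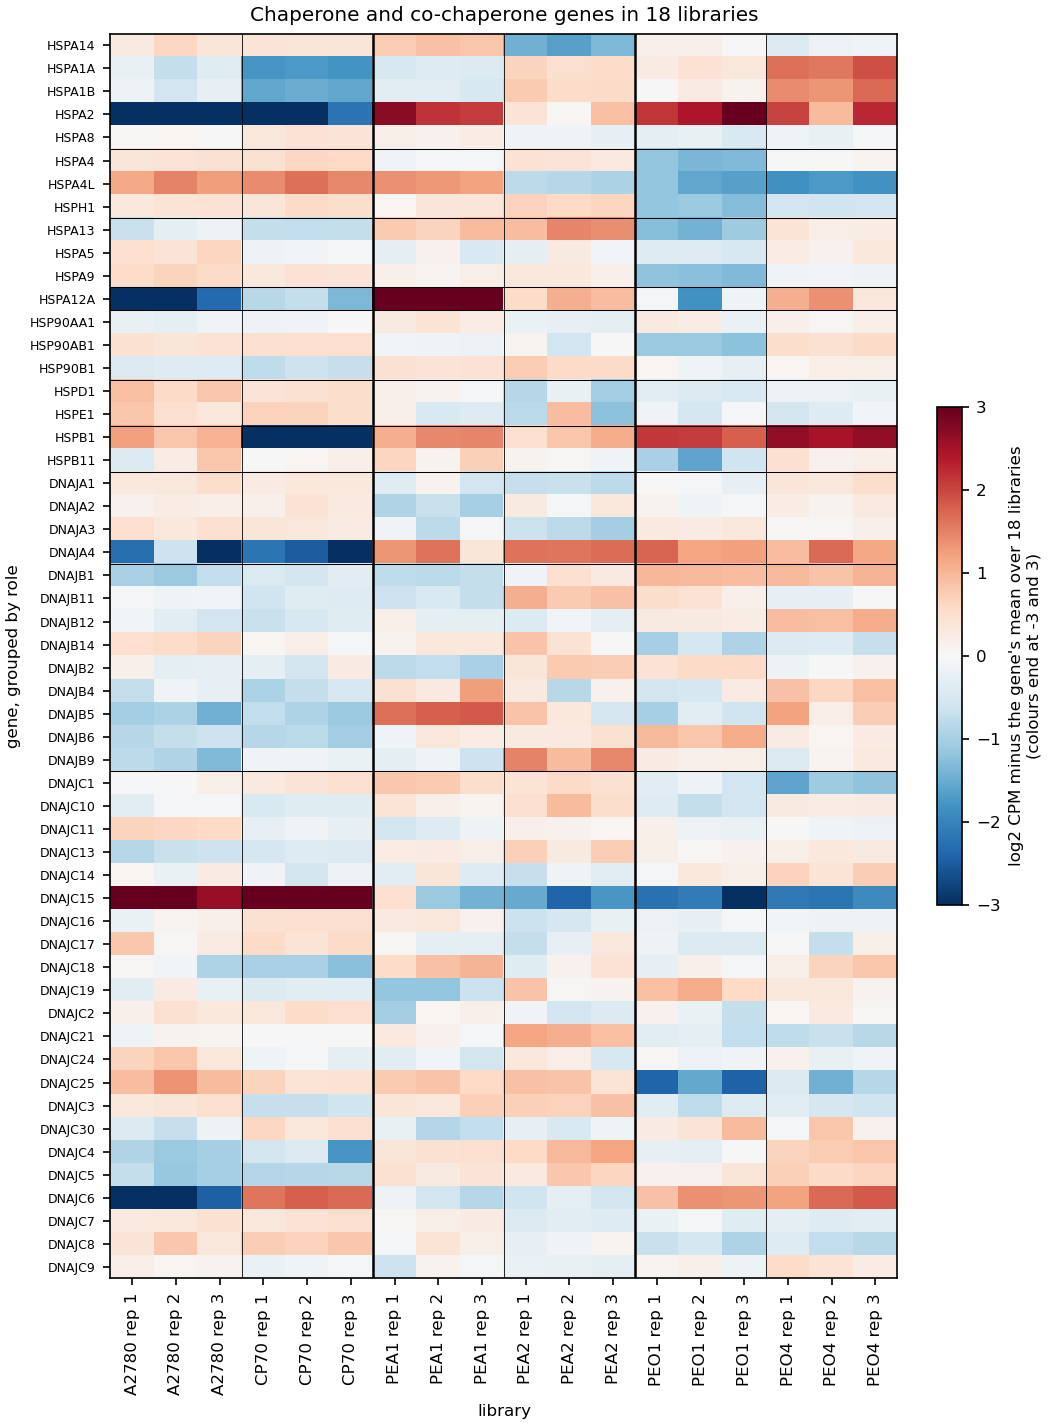
Each row is a chaperone gene, grouped by role with thin lines between roles, and each column is a library. Colour gives the log2 CPM minus the gene's mean over the 18 libraries and ends at -3 and 3. Most rows are pale. Among those that stand out are HSPB1 and DNAJA4 in CP70, DNAJC6 in A2780, and HSPA12A in A2780 and PEA1. HSPA2 and DNAJC15 also stand out in A2780 and CP70.

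Many chaperone genes differed within each pair, and about as often as other genes did. In the A2780 pair 19 of 54 passed the FDR (35.2%, against 39.9% of all genes), 8 of them higher and 11 lower in CP70. In the PEA pair 33 passed (61.1%, against 61.9% of all genes), 17 higher and 16 lower in PEA2, or 10 higher and 18 lower with quantile normalization, which moved the median log2FC of all genes there to -0.10. In the PEO pair 26 passed (48.1%, against 41.5%), and here the direction was uneven, with 20 higher (37% of members, against 19.6% of all genes) and 6 lower (11.1%, against 21.9%). The median log2FC of the members in the PEO pair was 0.24, beside -0.02 for all genes, and in the A2780 and PEA pairs it was -0.06 and 0.01, beside -0.02 and 0.01.

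Most of these changes were below 1 on the log2 scale. An absolute log2FC above 2 was reached by 3 members in the A2780 pair, DNAJC6, HSPA12A and HSPB1 (9.06% of all genes passed both thresholds), by 3 in the PEA pair, HSPA14, HSPA4L and HSPA12A (14.1% of all genes), and by 0 in the PEO pair (6.22% of all genes). An absolute log2FC below 1 was found for 13 of the 19, 21 of the 33 and 15 of the 26 that passed, or 68.4%, 63.6% and 57.7%, against 51.8%, 45.7% and 54.7% of all genes that passed. With quantile normalization (1.90) or 2 reads added to each count (1.82), HSPA12A fell below 2 in the A2780 pair. The 3 libraries of a line did not overlap those of its partner for 30 members in the A2780 pair (54.6% of all genes), 29 in the PEA pair (62.6%), and for 33 between PEO1 and PEO4 (57.5%).

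No member rose or fell in the same direction in all 3 pairs, as 2.8% of all genes did, with limma at an FDR below 0.05. The count was also 0 under each alternative that was run. A change in all 3 pairs in any direction was found for 6 members, DNAJB11, HSP90B1, HSPA12A, HSPA1A, HSPA1B and HSPB1 (12.7% of all genes), and for 7 members, DNAJA4, DNAJC14, DNAJC17, DNAJC2, DNAJC8, DNAJC9 and HSPE1, none was found (84.3% of all genes passed in at least 1 pair). Of members that passed in both the A2780 and PEA pairs, 9 moved in opposite directions (69.2%, against 46.7% of all genes that passed in both) and 4 in the same direction. The counts were 6 opposite (75%, against 56.7%) and 2 the same for the A2780 and PEO pairs, and 7 opposite (43.8%, against 54.2%) and 9 the same for the PEA and PEO pairs. Opposite calls made up 12.1%, 10.6% and 14.6% of the whole table, and calls in the same direction 13.8%, 8.11% and 12.3%, in the same order of pairs. The members' counts are small and were not tested against all genes.

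**Figure D2:**
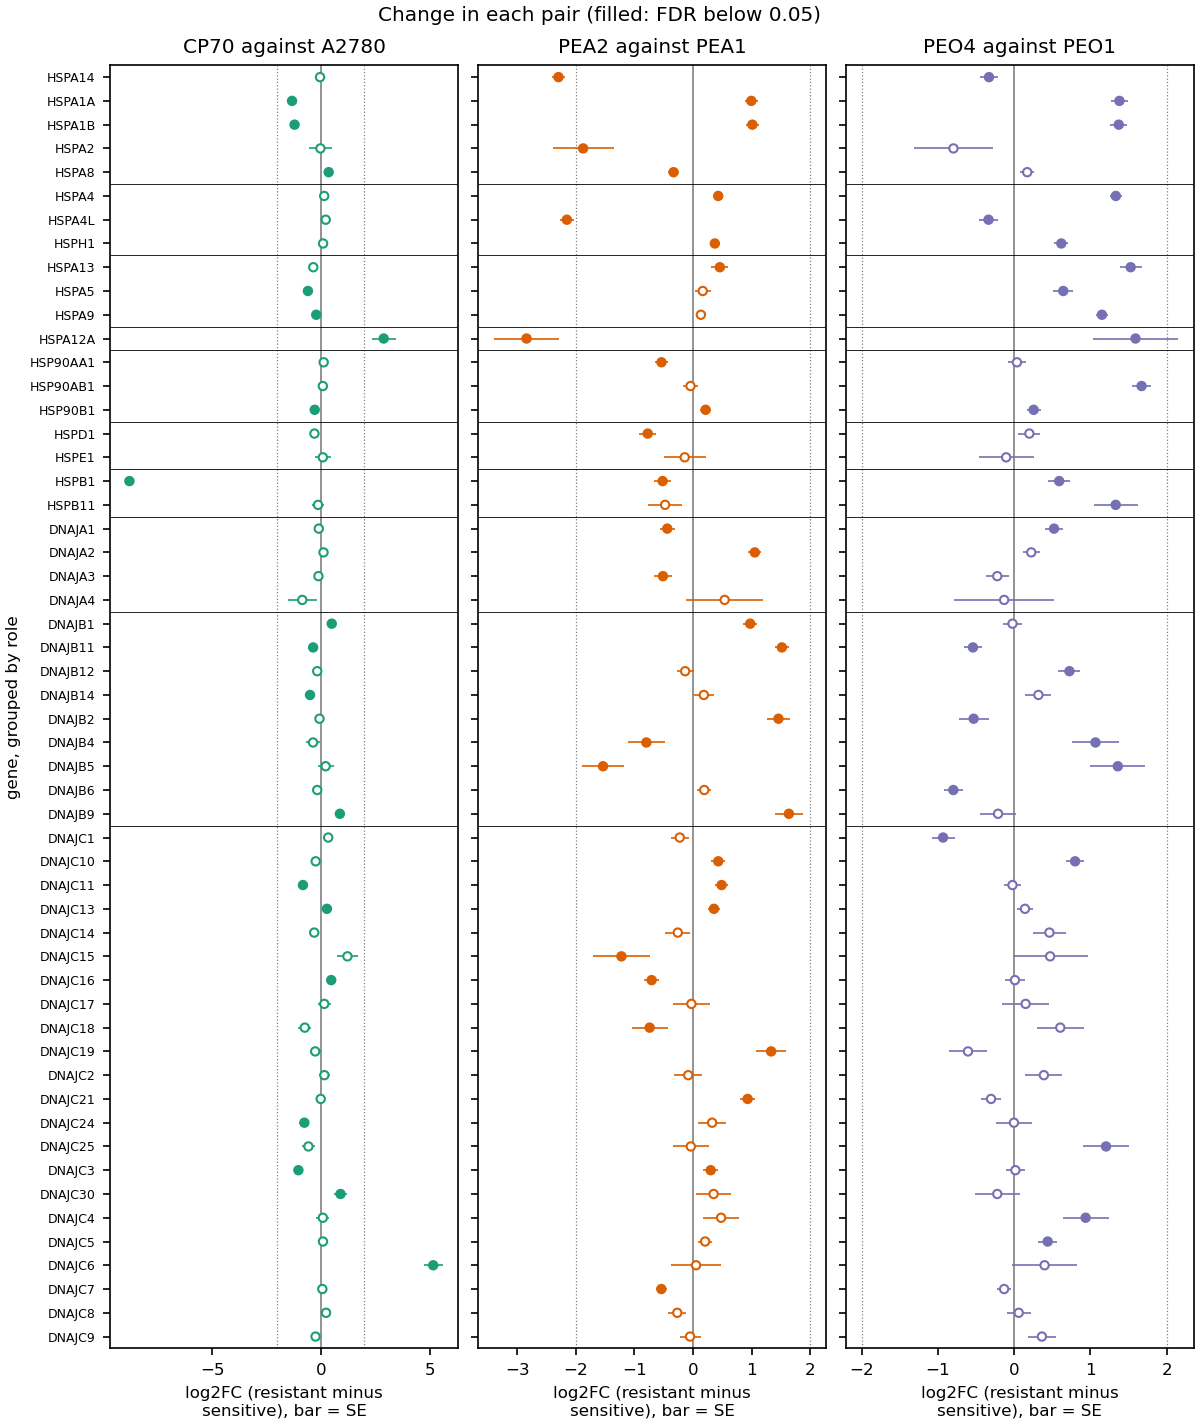
Each point is the log2FC of a chaperone gene (resistant minus sensitive, bar = SE) in the A2780, PEA and PEO pairs, filled where the FDR was below 0.05; dotted lines mark -2 and 2 and the scale differs between panels. HSPB1 lies at -8.81 in the first panel, and in the third panel 20 of the 26 filled points lie to the right of 0.

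HSPA1A and HSPA1B, which encode the stress-inducible cytosolic HSP70, changed in every pair but not in the same direction. They lie side by side on chromosome 6 of GRCh37, on the plus strand at 31783320-31785723 and 31795515-31798031, with no overlapping gene. Their exons share much sequence, since 73.7% of the 50-base stretches of HSPA1A also occur in HSPA1B and 71.6% of those of HSPA1B in HSPA1A, so the split of reads between them is uncertain. Their promoters are shown because the genes moved together, and because each holds a pair of heat shock element units. This element is the HSF1 binding motif, and such a pair lay in 13.5% of the 35116 promoters searched. The sequences are those of RefSeq for GRCh38.p14, 250 bases before to 50 after the gene start, both on the plus strand, at chr6:31815293-31815592 and chr6:31827488-31827787. Capitals mark a pair of heat shock element units (GAANNTTC or TTCNNGAA, which read the same on both strands), from base -106 to -99 and from base -105 to -98 counted from the start.
HSPA1A: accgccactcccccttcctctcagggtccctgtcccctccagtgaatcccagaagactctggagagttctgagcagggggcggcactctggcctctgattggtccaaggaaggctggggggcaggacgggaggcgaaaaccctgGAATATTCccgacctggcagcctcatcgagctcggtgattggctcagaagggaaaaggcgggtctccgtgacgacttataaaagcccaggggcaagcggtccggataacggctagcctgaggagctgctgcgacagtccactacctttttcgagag
HSPA1B: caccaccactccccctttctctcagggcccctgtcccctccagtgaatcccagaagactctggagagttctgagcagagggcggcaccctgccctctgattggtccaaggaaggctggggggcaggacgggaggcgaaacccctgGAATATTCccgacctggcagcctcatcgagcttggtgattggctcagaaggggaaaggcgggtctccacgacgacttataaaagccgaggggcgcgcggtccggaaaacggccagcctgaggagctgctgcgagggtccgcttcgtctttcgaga

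HSPA1A stood at 7.14, 6.65 and 7.0005 log2 CPM in A2780 and at 5.60, 5.64 and 5.56 in CP70. It stood at 6.88, 6.97 and 6.96 in PEA1 and at 8.04, 7.84 and 7.91 in PEA2. In PEO1 it was 7.61, 7.80 and 7.70, and in PEO4 9.01, 8.95 and 9.29. The partners did not overlap in any pair, CP70 held the lowest libraries of all and PEO4 the highest, and those of A2780 and PEA1 overlapped. The log2FC was -1.33 ± 0.11 (SE, n = 3 per line, FDR = 5.74e-09) in the A2780 pair, a 2.52-fold lower level, 0.99 ± 0.11 (FDR = 2.2e-07) in the PEA pair, a 1.99-fold higher level, and 1.38 ± 0.11 (FDR = 7.29e-09) in the PEO pair, a 2.60-fold higher level. The values of HSPA1B followed the same order, with a log2FC of -1.21, 1.01 and 1.37. Over the 6 line means, the genes of the whole table whose pattern was most like HSPA1A were HSPA1B (Pearson's r = 0.995), FAM200B (0.989) and ALKBH3 (0.979), a description over 6 means of 3 libraries each.

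HSPA8, the constitutive cytosolic HSP70, moved less than HSPA1A in each pair. It was 11.33, 11.35 and 11.32 log2 CPM in A2780 and 11.65, 11.72 and 11.69 in CP70, a rise of 0.36 ± 0.09 (FDR = 0.00483). In PEA1 it was 11.48, 11.43 and 11.53 and in PEA2 11.19, 11.21 and 11.06, a log2FC of -0.33 (FDR = 0.00464) that was -0.65 with quantile normalization. In the PEO pair the log2FC was 0.17 (FDR = 0.16), and it passed at 0.18 with voom weights. Neither pair that passed had overlapping lines. The promoter of HSPA8 is shown because it holds exact matches to 3 heat shock element units in a row. The part of these units in the level of HSPA8 was not tested. It lies on the minus strand of GRCh38.p14 at chr11:123062087-123062386 (RefSeq), and capitals mark 3 units in a row, at -230 to -218 and at -55 to -43.
HSPA8: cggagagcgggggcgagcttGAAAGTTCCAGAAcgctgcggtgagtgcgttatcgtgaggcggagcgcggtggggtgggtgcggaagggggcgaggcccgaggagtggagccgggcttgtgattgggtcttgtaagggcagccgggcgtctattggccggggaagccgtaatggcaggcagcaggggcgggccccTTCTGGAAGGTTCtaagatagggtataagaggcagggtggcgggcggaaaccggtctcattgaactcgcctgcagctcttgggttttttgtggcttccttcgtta

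HSPA14, a ribosome-associated HSP70 that acts on new chains, fell steeply in PEA2. It was 6.66, 6.79 and 6.75 log2 CPM in PEA1 and 4.47, 4.28 and 4.56 in PEA2, with no overlap, a log2FC of -2.30 ± 0.12 (FDR = 2.29e-12). In the A2780 pair the log2FC was -0.04 (FDR = 0.804) and in the PEO pair -0.33 (FDR = 0.0284). The gene lies on the plus strand of chromosome 10 at 14880305-14913740 and overlaps CDNF on the opposite strand and MSANTD7 on its own, which holds 11% of its 50-base stretches. The 35 other genes of the table within 5 Mb of it had a median log2FC of -1.70 in the PEA pair, and 11.4% of them were higher in PEA2. HSPA2, known for its role in sperm development, had 0 or 1 reads in each A2780 and CP70 library. It fell in the PEA pair (log2FC -1.88 ± 0.52, FDR = 0.00394), from 3.58, 3.03 and 2.96 log2 CPM in PEA1 to 1.26, 0.90 and 1.78 in PEA2, and had a log2FC of -0.80 in the PEO pair (FDR = 0.238).

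The HSP110 genes, which encode the nucleotide exchange factors of HSP70, did not pass in the A2780 pair and all passed in the other pairs. HSPA4 was 7.65, 7.46 and 7.51 log2 CPM in PEO1, its lowest line, and 8.86, 8.83 and 8.93 in PEO4, a rise of 1.33 ± 0.08 (FDR = 8.17e-11) or 2.52-fold. It likewise rose in PEA2, by 0.43 (FDR = 8.51e-05). HSPH1 rose by 0.37 in the PEA pair (FDR = 0.00141) and by 0.62 in the PEO pair (FDR = 1.47e-05), from 7.19, 7.24 and 7.05 in PEO1 to 7.78, 7.77 and 7.79 in PEO4. With quantile normalization the rise of HSPH1 in the PEA pair was 0.12 and did not pass.

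HSPA4L went the other way. It was 7.42, 7.35 and 7.26 log2 CPM in PEA1 and 5.27, 5.19 and 5.11 in PEA2, a log2FC of -2.15 ± 0.12 (FDR = 1.51e-11) with no overlap. It was 7.19, 7.54 and 7.30 in A2780 and 4.88, 4.48 and 4.42 in PEO1, so its level separated the sensitive lines by more than the PEO pair, whose log2FC of -0.34 (FDR = 0.0361) was lost without PEO1 replicate 1 (-0.19), PEO4 replicate 1 (-0.31) or PEO4 replicate 3 (-0.32), in a fit of that pair alone, without the variance trend and with voom weights (-0.30). The gene is on the plus strand of chromosome 4 at 128702976-128761888, where the 15 other genes within 5 Mb had a median log2FC of 0.10 in the PEA pair.

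HSP70 genes of the organelles all rose in the PEO pair. HSPA9, the HSP70 of the mitochondrial matrix, was 7.82, 7.79 and 7.71 log2 CPM in PEO1 and 8.93, 8.95 and 8.89 in PEO4, a log2FC of 1.15 ± 0.08 (FDR = 5.15e-10). HSPA13, a small HSP70 of microsomes, was 4.88, 4.74 and 5.09 in PEO1 and 6.56, 6.36 and 6.37 in PEO4, a log2FC of 1.53 ± 0.15 (FDR = 6.5e-08). HSPA5, the endoplasmic reticulum chaperone BiP, was 9.42, 9.43 and 9.33 in PEO1 and 10.05, 9.94 and 10.13 in PEO4, a log2FC of 0.64 ± 0.13 (FDR = 0.000618). None of the 3 overlapped between PEO1 and PEO4.

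In the A2780 pair HSPA5 fell, from 10.33, 10.20 and 10.46 in A2780 to 9.66, 9.74 and 9.79 in CP70 (log2FC -0.60 ± 0.13, FDR = 0.00117), again without overlap. HSPA9 had a log2FC of -0.22 (FDR = 0.0299), which did not pass without A2780 replicate 2 (-0.18) or 3 (-0.23) or CP70 replicate 1 (-0.18) or 3 (-0.22), with quantile normalization (-0.16) or without the variance trend. In the PEA pair HSPA5 was not called (0.17, FDR = 0.294), although it passed at 0.33 without PEA1 replicate 2, nor was HSPA9 (0.13, FDR = 0.14), and HSPA13 rose by 0.46 (FDR = 0.0108).

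HSPA12A, a distant HSP70 relative, passed in all 3 pairs, and it had between 0 and 2 reads in A2780 libraries and between 8 and 19 in CP70, a ratio of CPM of 9.37 with a 95% interval of 2.99 to 47.3 that covers counting error only. It fell from 6.27, 6.13 and 6.17 log2 CPM in PEA1 to 3.05, 3.58 and 3.43 in PEA2 (log2FC -2.84 ± 0.56, FDR = 0.000184). In PEO1 it was 2.43, 0.69 and 2.38 and in PEO4 3.58, 3.86 and 2.83 (log2FC 1.59 ± 0.56, FDR = 0.027). PEO1 replicate 2 stood below the other libraries of its line, and the PEO change did not pass without that library (1.02), PEO4 replicate 1 (1.51) or PEO4 replicate 2 (1.37), and was 2.40 with quantile normalization. The gene lies on the minus strand of chromosome 10 at 118430703-118609762, across from ENO4.

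Of the HSP90 genes, HSP90AB1, the constitutive cytosolic form, differed most in the PEO pair. It was 9.70, 9.69 and 9.58 log2 CPM in PEO1, the lowest line, and 11.33, 11.26 and 11.39 in PEO4, where it reached the level of A2780 (11.26, 11.16 and 11.24) and CP70 (11.30, 11.32 and 11.31). The log2FC was 1.67 ± 0.12 (FDR = 1.95e-09) or 3.18-fold, the highest of any member in the PEO pair, and 0.09 (FDR = 0.609) and -0.04 (FDR = 0.774) in the A2780 and PEA pairs. In PEA2 the libraries were spread, 10.88, 10.24 and 10.81, with replicate 2 lowest, and with quantile normalization the PEA value was -0.49 and passed. The gene lies on the plus strand of chromosome 6 at 44213903-44221625, and 13.8% of its 50-base stretches recur in the pseudogene HSP90AB3P, so a part of its reads is uncertain.

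HSP90AA1, the inducible cytosolic form, was not called between A2780 and CP70 (0.13, FDR = 0.412) or between PEO1 and PEO4 (0.04, FDR = 0.832), and it fell in the PEA pair, from 11.34, 11.48 and 11.30 log2 CPM in PEA1 to 10.87, 10.84 and 10.81 in PEA2 (log2FC -0.54 ± 0.11, FDR = 0.000418, or -1.04 with quantile normalization). HSP90B1, the HSP90 of the endoplasmic reticulum, passed in each pair with small values of -0.29 (FDR = 0.0145), 0.21 (FDR = 0.0449) and 0.25 (FDR = 0.0281). Its change in the A2780 pair did not pass without CP70 replicate 1 (-0.25). The change in the PEA pair failed the threshold without A2780 replicate 3, any CP70, PEO4 or PEA1 library, PEO1 replicate 2 or PEA2 replicate 1 (0.15 to 0.23), in a fit of that pair alone and without the variance trend, and turned to -0.20 with quantile normalization. The change in the PEO pair was lost without PEO1 replicate 2 (0.25) or 3 (0.18) or PEO4 replicate 2 (0.23) or 3 (0.24).

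The mitochondrial chaperonin consists of HSPD1 rings capped by HSPE1, whose genes lie head to head on chromosome 2 and overlap on opposite strands. HSPD1 fell in the PEA pair, from 9.67, 9.61 and 9.45 log2 CPM to 8.64, 9.30 and 8.47 (log2FC -0.77 ± 0.14, FDR = 0.000108), with PEA2 replicate 2 above the other PEA2 libraries. HSPE1 was 4.60, 4.003 and 4.08 in PEA1 and 3.65, 5.39 and 3.23 in PEA2, so that the same library stood apart and the lines overlapped. Its log2FC was -0.14 (FDR = 0.749), and without PEA2 replicate 2 it was -0.79 and passed. Neither gene passed in the A2780 pair (-0.30 and 0.09, HSPD1 passing there at -0.30 without PEA2 replicate 2, with voom weights and in a fit of that pair alone) or the PEO pair (0.20 and -0.11, HSPD1 passing in a fit of that pair alone). Whether the counting used strand is not given in the sources used here, so reads in the overlap may not be assigned to the right gene.

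The largest change of any member was in HSPB1, the small heat shock protein HSP27, in the A2780 pair. HSPB1 was 7.64, 7.23 and 7.44 log2 CPM in A2780, from 389 to 714 reads, and -1.29, -1.49 and -1.34 in CP70, where each library held 1 or 2 reads. The ratio of CPM was 614, with a 95% interval of 239 to 2256 that covers counting error only, and the fitted log2FC was -8.81 ± 0.15 (FDR = 1.13e-19). The libraries held 3400531 to 5479562 reads in CP70 and 2077384 to 3461770 in A2780. The other 5 lines all held HSPB1 at high levels, and per kilobase it ranked below 3 other members in PEA1, PEO1 and PEO4.

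In the PEA pair HSPB1 was 7.51, 7.85 and 7.87 in PEA1 and 6.90, 7.25 and 7.52 in PEA2, a log2FC of -0.52 ± 0.15 (FDR = 0.0048) with lines that overlapped. In the PEO pair it was 8.53, 8.51 and 8.20 in PEO1 and 9.06, 8.89 and 9.06 in PEO4, a log2FC of 0.59 ± 0.15 (FDR = 0.00305) without overlap. HSPB1 lies on the plus strand of chromosome 7 at 75931990-75933612 with no overlapping gene, and 4.22% of its 50-base stretches recur in HSPB1P1. The 48 other genes within 5 Mb had a median log2FC of 0.09 in the A2780 pair. Over the 6 line means the genes most like HSPB1 were HIST1H2BI (Pearson's r = 0.992), HIST1H3I (0.991) and GPATCH8 (0.991). These values rest largely on the low mean of CP70 and are a description. Its promoter, on the plus strand of GRCh38.p14 at chr7:76302423-76302722 (RefSeq), is shown since the gene was at the floor of detection in CP70. Capitals mark a pair of heat shock element units at -182 to -175, and the sequence is that of the reference, not of the line.
HSPB1: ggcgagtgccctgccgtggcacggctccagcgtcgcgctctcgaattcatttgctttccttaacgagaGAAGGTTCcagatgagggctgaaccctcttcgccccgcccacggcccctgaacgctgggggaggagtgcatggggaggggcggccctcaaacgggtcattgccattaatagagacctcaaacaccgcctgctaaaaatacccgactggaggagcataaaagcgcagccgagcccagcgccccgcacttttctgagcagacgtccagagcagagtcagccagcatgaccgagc

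HSPB11 (IFT25) rose in the PEO pair, from 2.9997, 2.37 and 3.37 log2 CPM in PEO1 to 4.46, 4.10 and 4.17 in PEO4 (log2FC 1.33 ± 0.29, FDR = 0.000822), with no overlap. In the A2780 and PEA pairs its log2FC was -0.13 (FDR = 0.744) and -0.48 (FDR = 0.155). No other gene named HSPB with a number was in the table, and small heat shock proteins under other names were not looked for.

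**Figure D3:**
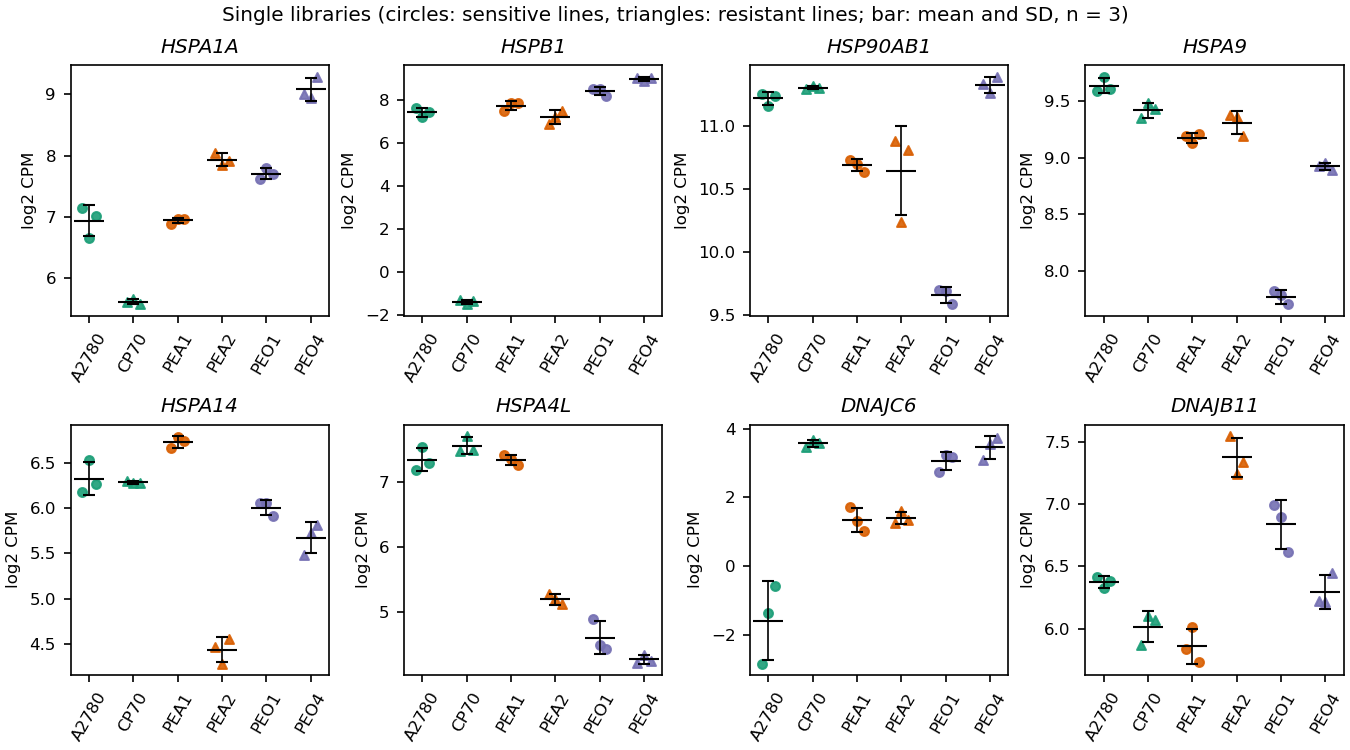
Each panel gives the log2 CPM of a gene in every library (circles for sensitive lines, triangles for resistant lines) with the mean and SD of 3 libraries; the scale differs between panels. HSPB1 lies between -1.49 and -1.29 in CP70 and at 6.90 or above in every other line, HSP90AB1 and HSPA9 are lowest in PEO1, and HSPA14 and HSPA4L fall within the PEA pair.

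Class A J proteins, the general partners of HSP70, moved modestly. DNAJA2 rose in the PEA pair, from 6.07, 6.30 and 5.98 log2 CPM to 7.25, 6.95 and 7.32 (log2FC 1.05 ± 0.11, FDR = 8.82e-08). DNAJA1 fell in the PEA pair by 0.44 (FDR = 0.00441), or by 0.25 without PEA1 replicate 2, and rose in the PEO pair by 0.52 (FDR = 0.00195). DNAJA3, which acts in mitochondria, fell in the PEA pair (log2FC -0.51, FDR = 0.00522). DNAJA4 had few reads in A2780 and CP70 and passed in no pair, and in the A2780 pair 0 of the 4 passed.

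Of the 9 class B J proteins 4, 6 and 6 passed in the A2780, PEA and PEO pairs (44.4%, 66.7% and 66.7%, against 39.9%, 61.9% and 41.5% of all genes). DNAJB1, the classical HSP40, rose in the A2780 pair from 6.44, 6.29 and 6.67 log2 CPM to 6.96, 6.86 and 7.06 (log2FC 0.50, FDR = 0.00235). In the PEA pair it rose from 6.64, 6.60 and 6.69 to 7.29, 7.87 and 7.70 (log2FC 0.98 ± 0.12, FDR = 7.31e-07). In the PEO pair it stood at 8.41, 8.38 and 8.34 in PEO1 and 8.37, 8.27 and 8.43 in PEO4 (log2FC -0.02, FDR = 0.903), so it was high in both lines and the libraries overlapped. DNAJB1 and HSPA1A thus moved in opposite directions in the A2780 pair and in the same direction in the PEA pair.

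DNAJB11 and DNAJB9, J proteins of the endoplasmic reticulum, were highest in PEA2. DNAJB11 was 5.83, 6.01 and 5.73 log2 CPM in PEA1 and 7.55, 7.24 and 7.34 in PEA2 (log2FC 1.52 ± 0.12, FDR = 1.08e-09). It fell in the A2780 pair (log2FC -0.36, FDR = 0.0187) and in the PEO pair, from 6.99, 6.90 and 6.62 to 6.22, 6.21 and 6.45 (log2FC -0.54, FDR = 0.000888). DNAJB9 was 3.40, 3.56 and 3.06 in PEA1 and 5.17, 4.62 and 5.13 in PEA2 (log2FC 1.64 ± 0.24, FDR = 5.95e-06), or 3.11-fold higher, and it rose in the A2780 pair (log2FC 0.87, FDR = 0.00589) but was not called in the PEO pair (-0.21, FDR = 0.512). The rise of DNAJB9 in the A2780 pair was 0.54 and did not pass with quantile normalization.

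DNAJB2, which delivers clients to the proteasome, rose in the PEA pair from 3.75, 3.80 and 3.56 log2 CPM to 4.89, 5.32 and 5.27 (log2FC 1.46 ± 0.20, FDR = 2.44e-06). Its log2FC in the PEO pair was -0.53 (FDR = 0.0357), a call lost without PEO1 replicate 1 (-0.58), 2 (-0.51) or 3 (-0.51) or PEO4 replicate 1 (-0.46) or 2 (-0.53). DNAJB5 fell in the PEA pair, from 3.75, 3.87 and 3.93 to 2.95, 2.41 and 1.57 (log2FC -1.54 ± 0.36, FDR = 0.00108), and rose in the PEO pair, from 1.09, 1.76 and 1.48 to 3.30, 2.27 and 2.83 (log2FC 1.36 ± 0.36, FDR = 0.00494). DNAJB6, which holds back protein aggregation, fell in the PEO pair from 7.47, 7.34 and 7.62 to 6.74, 6.55 and 6.75 (log2FC -0.80 ± 0.12, FDR = 2.46e-05).

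The 22 class C J proteins, a mixed group with specialised tasks, passed in 7, 10 and 5 cases in the A2780, PEA and PEO pairs (31.8%, 45.5% and 22.7%), below the 39.9%, 61.9% and 41.5% of all genes. DNAJC6, or auxilin, which with HSPA8 strips clathrin from vesicles, was lowest in A2780. It had 0 or 1 reads in each A2780 library and 45 to 67 in each CP70 library, a ratio of CPM of 56.6 with a 95% interval of 15.4 to 471 (counting error only), and the fitted log2FC was 5.17 ± 0.43 (FDR = 4.6e-09). In the PEA and PEO pairs its log2FC was 0.05 (FDR = 0.924) and 0.40 (FDR = 0.494), at a level of 1.01 to 1.71 log2 CPM in PEA1 and 3.08 to 3.72 in PEO4. The PEA value rests on few reads, 3 to 4 in each PEA1 library and 4 to 10 in each PEA2 library. The gene lies on the plus strand of chromosome 1 at 65713902-65881554, where the 28 other genes within 5 Mb had a median log2FC of 0.19 in the A2780 pair.

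DNAJC15, a J protein of the inner mitochondrial membrane whose loss has been linked to drug resistance in ovarian cancer, was detected in A2780 and CP70 and barely elsewhere. It was 2.65, 2.93 and 2.23 log2 CPM in A2780 and 3.74, 3.87 and 3.87 in CP70, with no overlap, a log2FC of 1.22 ± 0.49 that missed the threshold (FDR = 0.0545) but passed when each pair was fitted alone, without the variance trend and without PEO1 replicate 3, PEA1 replicate 1 or PEA1 replicate 3 (1.22 each), with voom weights (1.16) and with 2 reads added (1.13). PEA1 held 1, 0 and 0 reads and PEA2 0 in each library, so no fold can be given although the fitted FDR was 0.0366, and that call, counted among the 33 of the PEA pair, was lost in a fit of that pair alone, with voom weights and without PEA1 replicate 1 or PEA2 replicate 2 or 3. PEO1 and PEO4 held 0 reads in every library. The gene lies on the plus strand of chromosome 13 at 43597339-43688349. Genes most like it over the 6 line means were MTND1P23 (Pearson's r = 0.997), TOX (0.996) and WDR82 (0.996). With the PEA and PEO lines near the floor, these values rest largely on the A2780 and CP70 means.

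Among J proteins of the endoplasmic reticulum in class C, DNAJC3, which also inhibits the kinase PERK, fell in the A2780 pair from 6.68, 6.72 and 6.84 log2 CPM to 5.67, 5.67 and 5.77 (log2FC -1.04 ± 0.13, FDR = 1.13e-06). Its PEA value of 0.30 (FDR = 0.0446) was lost without any CP70 library, PEO4 replicate 2, PEA1 replicate 1 or 2, or PEA2 replicate 1 or 3 (0.23 to 0.32), with quantile normalization (0.16) or voom weights (0.28), in a fit of that pair alone and without the variance trend, and its PEO value was 0.02 (FDR = 0.936). DNAJC10, a reductase that helps remove misfolded proteins, rose in the PEA pair by 0.43 (FDR = 0.00395) and in the PEO pair by 0.80 (FDR = 1.8e-05). DNAJC1, a membrane J protein, fell in the PEO pair from 4.87, 5.05 and 4.63 to 3.62, 4.13 and 4.002 (log2FC -0.93 ± 0.15, FDR = 4.32e-05).

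DNAJC11, a mitochondrial J protein, fell in the A2780 pair, from 6.69, 6.65 and 6.62 log2 CPM to 5.77, 5.91 and 5.78 (log2FC -0.83 ± 0.12, FDR = 7.11e-06), and rose by 0.49 in the PEA pair (FDR = 0.00117). DNAJC19, a subunit of the import motor of the inner membrane, rose in the PEA pair from 2.45, 2.42 and 2.96 to 4.47, 3.65 and 3.70 (log2FC 1.33 ± 0.25, FDR = 0.000142). DNAJC30, also mitochondrial, rose in the A2780 pair by 0.90 (FDR = 0.0193), a call lost with quantile normalization (0.51) and without A2780 replicate 2 (0.77) or CP70 replicate 1 (0.83). DNAJC25 rose in the PEO pair by 1.204 ± 0.303 (FDR = 0.00315), from 0.55, 1.42 and 0.52 log2 CPM in PEO1, its lowest line.

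Whether a change differed between pairs was tested directly, at an FDR below 0.05 and a difference of log2FC above 2. This held for 8 members between the PEA and A2780 pairs (20.4% of all genes), 4 between the PEO and A2780 pairs (14.9%) and 3 between the PEO and PEA pairs (19.4%). HSPA1A and HSPA1B were among the first and the second, with differences of 2.32 ± 0.16 and 2.23 ± 0.16 for the PEA pair minus the A2780 pair, and 2.71 ± 0.16 and 2.58 ± 0.16 for the PEO pair minus the A2780 pair. At the FDR alone, 31, 29 and 34 members differed (57.5%, 47.5% and 58.7% of all genes).

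The model with a common term for resistance over the 3 pairs called 11 members, 8 higher and 3 lower in the resistant lines, against 24.1% of all genes called (12.5% higher and 11.6% lower), and 5 higher and 3 lower with quantile normalization. HSPA4 (0.64 ± 0.13, FDR = 0.00308), HSPH1 (0.36 ± 0.08, FDR = 0.004), DNAJB1 (0.48, FDR = 0.0108), DNAJA2 (0.46, FDR = 0.0128), DNAJC13 (0.26, FDR = 0.0176), DNAJB9 (0.76, FDR = 0.0241), DNAJC6 (1.87, FDR = 0.0371) and DNAJC5 (0.25, FDR = 0.0466) were higher, and HSPA14 (-0.89, FDR = 0.0179), HSPA4L (-0.76, FDR = 0.0408) and HSPB1 (-2.91, FDR = 0.0458) lower. The averages of DNAJC6 and HSPB1 draw on the A2780 pair, with 5.17 and -8.81, and HSPB1 rose in the PEO pair. Those of HSPA14 and HSPA4L draw on the PEA pair, with -2.30 and -2.15. Fitted by pair, DNAJA2 passed only in the PEA pair and DNAJC5 only in the PEO pair. With the differences of the 3 pairs as the replicates, 0 members passed and 0 had an unadjusted p below 0.05 with limma (0.685% of all genes).

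Several members that changed in the PEO and PEA pairs lie among genes whose median log2FC had the same sign, and others do not. Around HSP90AB1 the 67 other genes of the table within 5 Mb had a median log2FC of 0.95 in the PEO pair, and 91% of them were higher in PEO4. Around HSPA1A and HSPA1B, which share a window, 142 genes had a median of 1.02 in the PEO pair, but -0.05 in the A2780 pair and 0.10 in the PEA pair. HSPA4 and HSPA9, on the same arm of chromosome 5, had medians of 0.90 (45 genes) and 0.55 (96 genes) around them in the PEO pair, and HSPA5 0.80 (110 genes). DNAJB11 and DNAJC19, on chromosome 3, had medians of 1.15 and 1.13 around them in the PEA pair, each over 49 genes, and of -0.60 and -0.63 in the PEO pair. The surroundings of DNAJC3 in the A2780 pair stood at -1.11 (23 genes), beside -1.04 for the gene. By contrast the genes around HSPA12A stood at 0.56 (43 genes) in the PEA pair, where the gene itself was at -2.84. Those around HSPA2 and HSPA4L stood at 0.37 and 0.10 in that pair, beside -1.88 and -2.15 for the genes themselves. In the PEO pair HSPB11 (1.33), DNAJB4 (1.07) and HSPH1 (0.62) rose among genes with medians of -0.08, -0.09 and -0.27. All of these are examples, and the share of called members with either pattern was not counted. The windows overlap and the genes within them are not replicates, so these are descriptions, and the part of the neighbourhood in the members' changes was not tested.

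**Figure D4:**
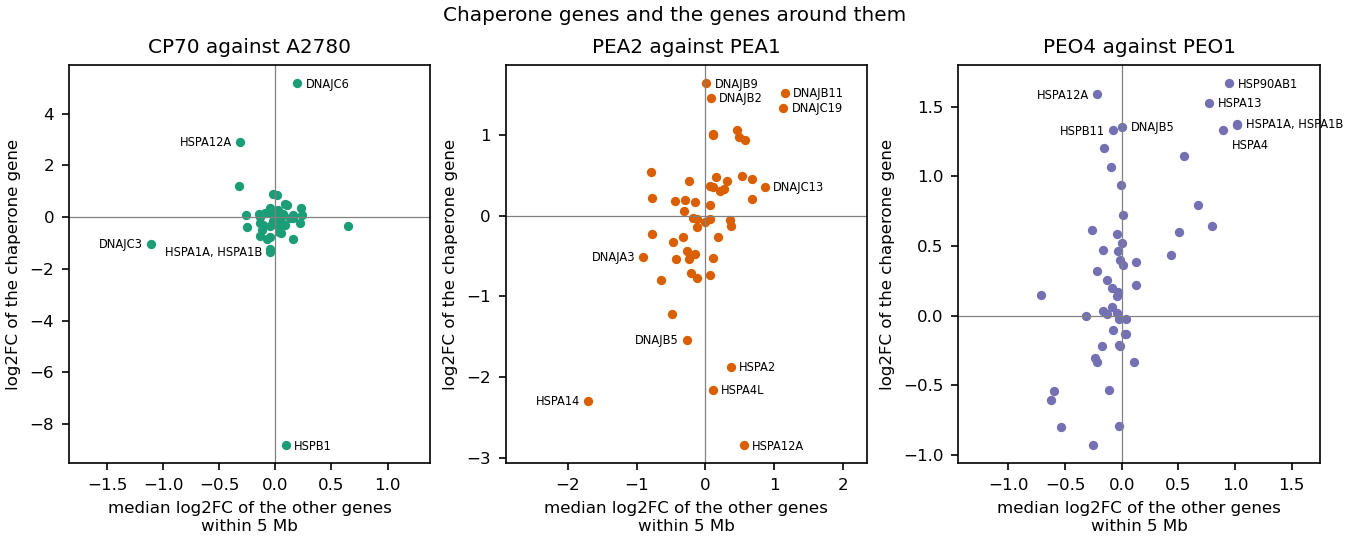
Each point is a chaperone gene, with its log2FC on the vertical axis and the median log2FC of the other genes of the table within 5 Mb on the horizontal axis, for the 3 pairs on separate scales. HSPA14 lies at -1.70 and -2.30 in the PEA pair, HSP90AB1 at 0.95 and 1.67 in the PEO pair, and HSPB1 at 0.09 and -8.81 in the A2780 pair.

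The regulators and partners of chaperones were read from lists chosen with earlier results of these data known. Of 36 heat shock regulators and cofactors of HSP70 and HSP90, 13 passed in the A2780 pair (10 higher, 3 lower), 18 in the PEA pair (7 higher, 11 lower, or 5 and 13 with quantile normalization) and 17 in the PEO pair (13 higher, 4 lower). These were 36.1%, 50% and 47.2%, beside 39.9%, 61.9% and 41.5% of all genes. HSF1 rose by 0.28 in the A2780 pair (FDR = 0.038) and by 1.13 in the PEO pair (FDR = 3.28e-08), and its log2FC in the PEA pair was -0.20 (FDR = 0.104). The highest and the lowest called cofactors were HSBP1L1 (2.01) and the HSP90 partner SUGT1 (-1.34) in the A2780 pair, and the HSP70 partner ST13 (1.61) and the ubiquitin ligase STUB1, or CHIP (-2.70), in the PEA pair. In the PEO pair the highest was BAG2 (1.66), an inhibitor of CHIP.

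Of 14 subunits of the cytosolic chaperonin TRiC and of prefoldin, which hands it new chains, 2 passed in the A2780 pair (1 higher, 1 lower), 10 in the PEA pair (7 higher, 3 lower, or 4 and 4 with quantile normalization) and 8 in the PEO pair (6 higher, 2 lower, or 7 and 1). These were 14.3%, 71.4% and 57.1%, beside 39.9%, 61.9% and 41.5% of all genes. Called subunits thus lay in both directions in each pair. The highest and the lowest called were TCP1 (1.07) and CCT7 (-0.98) in the A2780 pair and PFDN4 (0.999) and CCT2 (-0.84) in the PEA pair. In the PEO pair they were CCT8 (1.32) and VBP1 (-1.33). The count of 2 in the A2780 pair was 4 or 5 under some alternatives, 5 without PEA2 replicate 2.

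The unfolded protein response list, with genes of folding in the endoplasmic reticulum, passed most often in the PEA pair. There 16 of 23 rose and 1 fell, or 16 and 4 with quantile normalization (73.9% passed, against 61.9% of all genes), with a median log2FC of 1.10 beside 0.01 for all genes. ERN1, the sensor IRE1, rose by 2.72, XBP1, the factor it activates, by 1.99, and SDF2L1, which binds DNAJB11, by 2.37, while the sensor ATF6 had a log2FC of -0.52. The chaperones HSPA5 (0.17, FDR = 0.294) and HSP90B1 (0.21) stood well below that median, and DNAJB9 and DNAJB11 above it. In the A2780 pair 9 fell and 1 rose (43.5% passed, against 39.9% of all genes), with ERO1L at -1.23 and EDEM1 at 0.39. In the PEO pair 8 rose and 5 fell (56.5%, against 41.5%), with TXNDC5 at 1.36 and CRELD2 at -1.05.

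Of 13 immediate early and stress response genes, which respond quickly to handling and stress of cells, 6 rose and 0 fell in the A2780 pair, 10 rose and 1 fell in the PEA pair and 3 rose and 5 fell in the PEO pair. These were 46.2%, 84.6% and 61.5%, beside 39.9%, 61.9% and 41.5% of all genes. The highest and lowest called were JUN (4.25, with at most 2 reads in an A2780 library) and DUSP1 (0.69) in the A2780 pair. They were IER3 (2.31) and JUN (-1.02) in the PEA pair, and EGR1 (2.61) and IER3 (-2.78, with at most 4 reads in a PEO4 library) in the PEO pair. The part of the listed genes in the changes of the inducible chaperones was not tested.

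**Figure D5:**
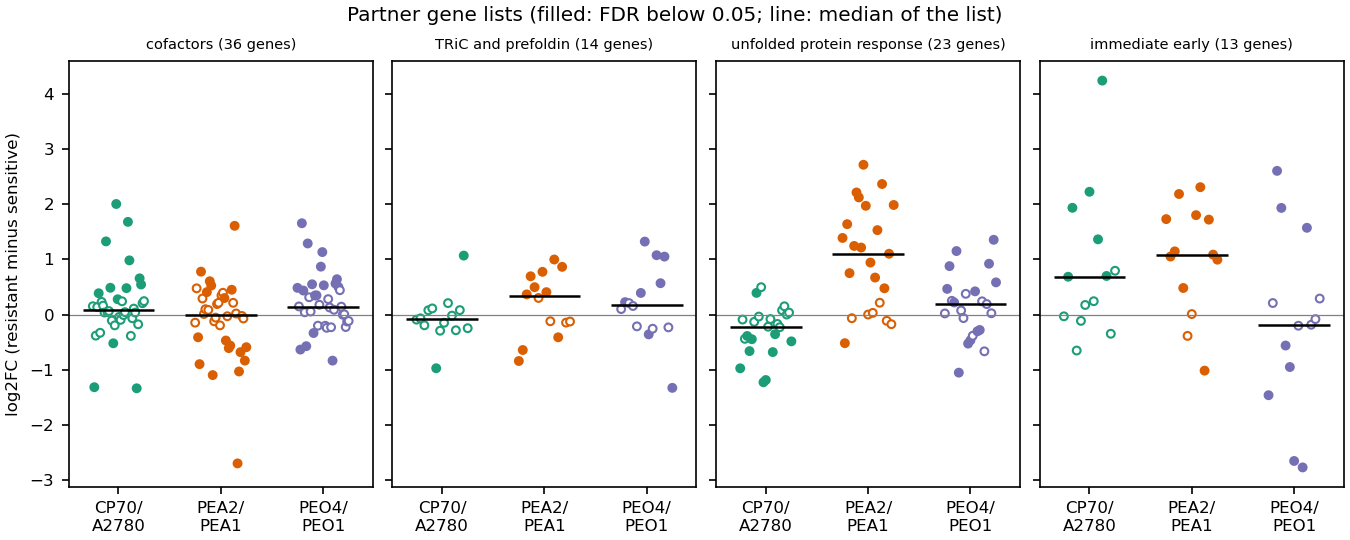
Each point is the log2FC of a gene of the cofactor, TRiC and prefoldin, unfolded protein response or immediate early list in the A2780, PEA and PEO pairs, filled where the FDR was below 0.05, with a line at the list's median. The unfolded protein response genes have a median of 1.10 in the PEA pair and -0.22 in the A2780 pair.

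Promoter sequence was available in RefSeq for 51 of the 54 members. A pair of heat shock element units, searched on both strands in the 300 bases around the start, lay in 8 of them (15.7%, against 13.5% of 35116 promoters), namely DNAJA1, DNAJB6, DNAJC15, HSPA1A, HSPA1B, HSPA8, HSPA9 and HSPB1. Overlapping pairs that make 3 units in a row were found in 3 (5.88%, against 0.49%), DNAJA1, DNAJB6 and HSPA8. The endoplasmic reticulum stress element, CCAAT and CCACG with 9 bases between them on either strand, was found in 2 (3.92%, against 0.0769%), HSPA5 and HSP90B1, once in the former and at 2 places in the latter. A match is a description of letters and not a site of binding. Only exact letters were searched, in a single window per member at a single RefSeq start. Imperfect units and other starts were not covered, so a member without a match is not shown to lack the element. Among members with heat shock element units, DNAJA1, HSPA1A (1.38), HSPA1B, HSPA9 and HSPB1 rose in the PEO pair and DNAJB6 fell (-0.80). In the A2780 pair HSPA8 rose by 0.36, while HSPA1A (-1.33), HSPA1B, HSPA9 and HSPB1 fell. In the PEA pair HSPA1A and HSPA1B rose, while DNAJA1, HSPA8, HSPB1 and, nearly without reads, DNAJC15 fell. The others were not called in the pair concerned, and the part of the element in these changes was not tested.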

How the data were processed

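RNA-seq was analysed for 18 libraries, 3 of each of 6 lines. Per the submitters' processing notes, reads were aligned to hg19 with Bowtie2 and counted with featureCounts, and versions and the use of strand in counting are not given in the sources used here. The authors deposited log2 CPM values normalized with limma. In each library these values came back as whole reads with 0.5 added, within 0.05 reads, so 100% of values were whole, and depths and ratios were taken from them. Differences were tested by limma 3.58.1 (R 4.3.3), with a variance trend and 1 mean per line over all 18 libraries. Adjusted p-values are Benjamini-Hochberg over 12853 genes. The calculation was tested on simulated data. Members, lists and named genes were chosen with earlier results of these data known. Named were members past both thresholds, the 5 highest and 5 lowest called members of each pair, and a set of core chaperones. From each list the highest and lowest called gene of a pair and HSF1 were named, except 1 that is not reported here. Positions and exon lengths are from the GENCODE annotation on GRCh37, matched for 12642 genes. Promoters are from RefSeq on GRCh38.p14. Intervals cover counting error only at 95%. Alternatives were single-pair fits, removal of 355 genes whose mean log2 value was at or below 0, quantile normalization, a replicate block, limma without the trend, voom weights on whole reads, 2 reads added, an FDR below 0.01, an absolute log2FC above 1, the 3 pair differences, and leaving out each library. Chromatin and platinum adduct data were not analysed here.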

Additional observations from a re-analysis of the deposited data

Results flagged for a closer look

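The change between the resistant and the sensitive line differed between pairs by more than 2 on the log2 scale, at an FDR below 0.05 in limma, for 15 comparisons of members. For the PEA pair minus the A2780 pair the difference of log2FC was 8.29 for HSPB1, 2.32 for HSPA1A and 2.23 for HSPA1B, and it was -5.73 for HSPA12A, -5.11 for DNAJC6, -2.44 for DNAJC15, -2.37 for HSPA4L and -2.26 for HSPA14. For the PEO pair minus the A2780 pair it was 9.40 for HSPB1, 2.71 for HSPA1A, 2.58 for HSPA1B and -4.77 for DNAJC6. For the PEO pair minus the PEA pair it was 4.43 for HSPA12A, 2.90 for DNAJB5 and -2.06 for DNAJB11. The values of HSPB1, DNAJC6, HSPA12A and DNAJC15 include lines with at most 2 reads in a library, where the size of the difference depends on the 0.5 reads added to each count.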

How the results depend on the processing

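Counts of members moved by over 1.5 times as follows. With quantile normalization 2 members passed both thresholds in the PEO pair and 6 differed between the PEO and PEA pairs, and with voom weights 5 did. At an FDR below 0.01, 12 passed in the A2780 pair and 2 in the linear model. With an absolute log2FC above 1, 6, 12 and 11 passed in the A2780, PEA and PEO pairs, and 17, 18 and 18 differed between pairs. With the 3 pair differences as replicates 0 passed. The libraries share only a replicate number: the correlations of deviations from the line means were -0.18 to 0.22, and the replicate block left 2 members in the linear model.

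Leaving out 1 library gave 13 to 20, 30 to 33 and 21 to 27 members at the FDR in the A2780, PEA and PEO pairs, 3 to 3, 3 to 4 and 0 to 0 past both thresholds, 0 to 0 in the same direction in all pairs, 8 to 11 in the linear model, and 7 to 10, 4 to 5 and 3 to 6 for the differences between pairs. The last was 6 without PEO1 replicate 3 and 5 without PEO4 replicate 3, PEA1 replicates 1 or 2, or PEA2 replicates 2 or 3. The lists gave 27 to 34, 51 to 57 and 36 to 49 genes. HSP90B1 in the PEA pair was -0.20 with quantile normalization, which moved the median of all genes by -0.10 there. Of 71 single-gene results, 40 of 52 called were called in each of the 25 refits run for single genes, which kept an FDR below 0.05 and set no threshold of size. Depth limits HSPA2, DNAJC15 and DNAJA4 in lines with few or 0 reads. The cause of these differences was not tested.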
